A study of Mus musculus with 3 samples.

Results

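Oligodendrocyte precursor cells of the mouse hippocampus were examined by single-nucleus RNA sequencing. A nucleus was counted as a precursor when it held a UMI (1 captured RNA molecule) of at least 3 of 7 marker genes, Pdgfra, Cspg4, Vcan, Olig1, Olig2, Lhfpl3 and Tnr, including Pdgfra or Cspg4. It also had at most 1 UMI of each of 3 summed sets (Mog, Mag and Hapln2; Slc17a7, Gad1 and Gad2; Ranbp3l, Slc6a13 and Slc47a1) and no UMI of Enpp6, Bmp4, Aqp4 or Csf1r. This rule found 386 of 35322 barcodes. There were 220 of 12192 in the doxorubicin plus ACY-1083 library, 99 of 12221 in the doxorubicin library and 67 of 10909 in the control library. Mice received doxorubicin together with ACY-1083, or doxorubicin alone, or no treatment. Doxorubicin is a cancer drug that traps topoisomerase II on DNA, and ACY-1083 blocks HDAC6, an enzyme that removes acetyl groups from tubulin. The study asked whether HDAC6 inhibition reverses the cognitive impairment caused by doxorubicin. Each library pooled both hippocampi of 4 mice, was made from flash-frozen tissue with the 10x 3' version 3 chemistry, and stood alone in its group. No test between groups was therefore possible, no p-value is given, and every difference describes these libraries. The labels name no strain, sex, age, dose or timing.

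Oligodendrocyte precursor cells, also called NG2 glia after the proteoglycan encoded by Cspg4, are spread through grey and white matter and are the main cells of the adult brain that still divide outside the neurogenic niches. Platelet-derived growth factor acting on its receptor PDGFRA keeps them dividing, and the transcription factors OLIG2, SOX10 and NKX2-2 set the oligodendrocyte lineage. When they differentiate they lose Pdgfra and Cspg4, pass through a committed stage marked by Enpp6, Bmp4 and Gpr17, and then express myelin genes. They receive synaptic input from neurons through glutamate and GABA receptors.

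The promoters of 3 genes that mark these nuclei are shown, because Pdgfra and Cspg4 are the genes 1 of which each precursor nucleus had to hold, and Sox6 encodes a factor that keeps precursors undifferentiated and was not used by the rule. The sequences are from RefSeq, GRCm38.p6, read 5′ to 3′ on the gene's strand from 250 bases before to 50 bases after its start, at chr5:75152001-75152300 (plus strand, Pdgfra), chr9:56864854-56865153 (plus strand, Cspg4) and chr7:116038695-116038994 (minus strand, Sox6). Capitals mark 2 E-boxes, the short motifs bound by basic helix-loop-helix factors such as the OLIG proteins: CAGCTG, which reads the same on both strands, and CATCTG, whose other strand is CAGATG.
Pdgfra: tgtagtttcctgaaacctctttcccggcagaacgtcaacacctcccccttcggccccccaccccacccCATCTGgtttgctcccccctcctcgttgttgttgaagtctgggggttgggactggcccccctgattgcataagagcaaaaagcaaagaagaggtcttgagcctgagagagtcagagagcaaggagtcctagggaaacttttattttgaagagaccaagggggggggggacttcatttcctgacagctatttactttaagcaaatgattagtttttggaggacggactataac
Cspg4: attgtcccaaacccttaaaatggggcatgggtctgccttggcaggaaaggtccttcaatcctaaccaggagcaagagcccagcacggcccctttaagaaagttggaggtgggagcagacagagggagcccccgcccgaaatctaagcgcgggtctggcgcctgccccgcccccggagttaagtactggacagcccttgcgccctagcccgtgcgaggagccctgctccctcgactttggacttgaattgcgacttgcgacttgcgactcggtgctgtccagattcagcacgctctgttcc
Sox6: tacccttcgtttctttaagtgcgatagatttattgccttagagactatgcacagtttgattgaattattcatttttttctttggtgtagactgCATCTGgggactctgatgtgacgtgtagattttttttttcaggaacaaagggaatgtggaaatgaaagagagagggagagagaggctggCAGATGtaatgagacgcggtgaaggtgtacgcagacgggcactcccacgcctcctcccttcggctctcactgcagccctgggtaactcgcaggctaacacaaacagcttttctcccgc
CATCTG stood in the Pdgfra promoter 1 time and in that of Sox6 2 times, and neither motif stood in the Cspg4 window. The table held a promoter for 15 of the 22 rule genes and precursor genes looked up. CATCTG was in 2 of these 15 and in 17.2% of all 27025 promoters. CAGCTG was in 1 of the 15, that of Lhfpl3, and in 16.1% of all promoters. ACAAAG, the core bound by SOX factors, was searched on both strands and was in 2 of the 15, Tnr and Sox6, and in 18.7% of all promoters. These matches are letters in a window and carry no information on binding.

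The nuclei of the doxorubicin plus ACY-1083 library were deeper than the others. Precursor nuclei had a median of 2297 UMIs and 1437 genes there, 920 UMIs and 649 genes in the doxorubicin library, and 808 UMIs and 599 genes in the control library. The corresponding medians over all barcodes were 3912.5, 1485 and 1487 UMIs. The precursor UMIs summed to 611459, 117535 and 60094 in the same order, so 3 UMIs of a gene, taken as the detection limit, stood for 4.91, 25.5 and 49.9 CPM (a gene's UMIs relative to all UMIs summed over the precursor nuclei of a library, scaled to the same total in each library). No cell barcode was shared between precursor nuclei of different libraries, although 46 barcodes were shared between the doxorubicin plus ACY-1083 and doxorubicin libraries, 29 between doxorubicin plus ACY-1083 and control, and 42 between doxorubicin and control. Libraries also differed in the software named in the file headers, Cell Ranger 5.0.0 for doxorubicin plus ACY-1083 and 4.0.0 for both others. Treatment, depth and software version cannot be told apart between doxorubicin plus ACY-1083 and doxorubicin.

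Precursor nuclei made up 1.80% of the doxorubicin plus ACY-1083 library (exact 95% interval 1.58 to 2.06), 0.810% of the doxorubicin library (0.659 to 0.985) and 0.614% of the control library (0.476 to 0.779). These and all further intervals up to the enrichment differences are exact, Clopper-Pearson for shares and ratios and Poisson for CPM, and cover counting error only. The intervals of doxorubicin and control overlapped. The rule needs several genes to be detected, so the share is also given at equal depth. With every nucleus thinned to 1000 UMIs and shallower ones left out, it was 1.61% in doxorubicin plus ACY-1083 (179 of 11104 nuclei), 0.338% in doxorubicin (30 of 8869) and 0.188% in control (15 of 7958). Of the precursor nuclei, 0.455% in doxorubicin plus ACY-1083, 58.6% in doxorubicin and 73.1% in control were under 1000 UMIs. These were left out, so the thinned shares still depend on depth. Among the markers, Lhfpl3 and Tnr, genes with long introns, differed most in detection. Lhfpl3 was detected in 98.6% of precursor nuclei in doxorubicin plus ACY-1083, 24.2% in doxorubicin and 20.9% in control, and at 1000 UMIs still in 94.5%, 9.76% and 27.8%. With at least 3 of the other 5 markers required, the shares were 0.984%, 0.458% and 0.413% in the same order, from 120, 56 and 45 nuclei. The doxorubicin plus ACY-1083 share stayed the highest of the 3 under each setting tried. Doxorubicin and control changed places when 4 markers were required (0.319% in doxorubicin, 0.321% in control) and at 500 UMIs per nucleus (0.286% in doxorubicin, 0.330% in control).

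**Figure D1:**
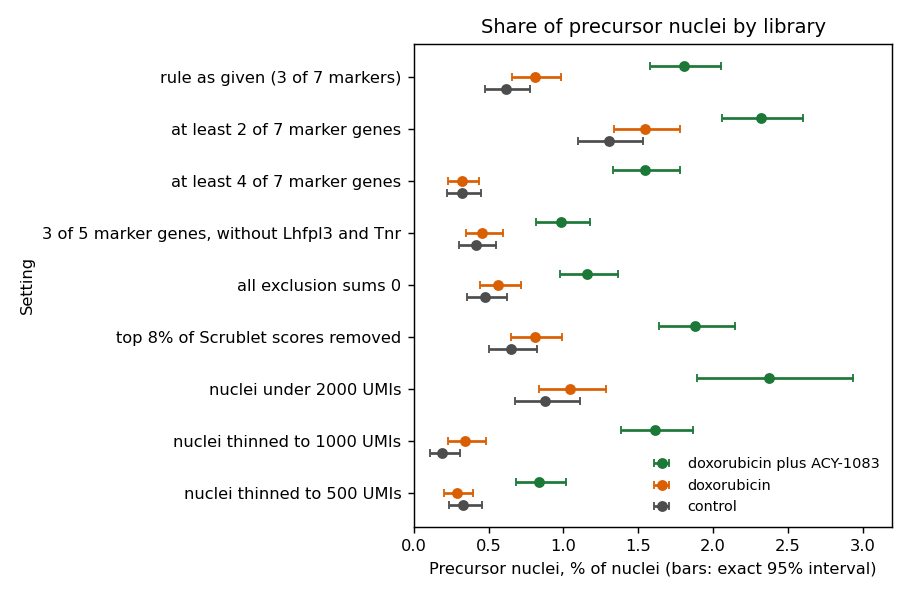
Share of precursor nuclei among all nuclei of each library, in percent, under the rule and under other settings of it; points are shares and bars exact 95% binomial intervals. The doxorubicin plus ACY-1083 point lies to the right of the other libraries in every row, at 1.80% under the rule against 0.810% in doxorubicin and 0.614% in control.

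Libraries also differed in the number of marker genes per nucleus. Exactly 3 markers were found in 32 of 220 precursor nuclei in doxorubicin plus ACY-1083 (14.5%), 60 of 99 in doxorubicin (60.6%) and 32 of 67 in control (47.8%). Just outside the rule, 63, 90 and 75 nuclei in the same library order held 2 of the 7 markers and met every other condition, and 130, 34 and 30 held enough markers but passed an exclusion limit. The summed level of 14 precursor genes that the rule did not use placed these edges. In the doxorubicin library it was 7449 CPM in nuclei with exactly 3 markers, 4023 CPM with 2 markers, 3284 CPM in those over a limit and 731 CPM in all nuclei outside the rule. In control the same 4 values were 7508, 4152, 2271 and 747 CPM. In doxorubicin plus ACY-1083 they were 5113, 1375, 5005 and 1296 CPM, so nuclei with 2 markers were closest to the other nuclei in that library.

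The precursor label held against genes outside the rule. All 14 such genes with at least 20 UMIs were at least 2-fold higher in precursor nuclei than in all other nuclei of the doxorubicin plus ACY-1083 library, as were 10 of 10 in doxorubicin and 9 of 9 in control. Of all genes with that many UMIs, 12.5%, 17.0% and 32.1% were 2-fold higher in the same library order. This is a description, since the nuclei were picked by correlated genes. Neu4, a sialidase, had 119, 56 and 25 UMIs and was 92.9-fold, 60.5-fold and 58.6-fold enriched in doxorubicin plus ACY-1083, doxorubicin and control. Emid1, a secreted protein with a collagen stretch, was 51.3-fold, 54.9-fold and 73.1-fold enriched in that order. C1ql1, a secreted ligand related to complement C1q, was 47.9-fold, 24.6-fold and 52.4-fold enriched, and Cacng4, an auxiliary subunit of AMPA receptors, 47.0-fold, 24.6-fold and 34.0-fold. Sox6 was 18.9-fold, 20.2-fold and 23.7-fold enriched and stood at 1251, 383 and 449 CPM. Its fold over other nuclei thus differed less between libraries than its level did.

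The genes the rule used give the same picture as a description of the selection. Pdgfra (ENSMUSG00000029231) had 816 CPM in doxorubicin plus ACY-1083, 859 CPM in doxorubicin and 1148 CPM in control, 110-fold, 69.9-fold and 104-fold above other nuclei. Cspg4 (ENSMUSG00000032911) had 289, 757 and 1148 CPM and was 81.4-fold, 76.5-fold and 138-fold enriched in the same order. Vcan, the proteoglycan versican, had 778, 1191 and 1614 CPM, and Tnr, the matrix glycoprotein tenascin-R, 2762, 800 and 1165 CPM. Olig1 was at 72.0, 272 and 483 CPM and Olig2 at 81.8, 230 and 316 CPM. Lhfpl3 stood at 4514 CPM in doxorubicin plus ACY-1083 against 238 CPM in doxorubicin and 250 CPM in control. Detection was also read in excitatory neurons, picked as nuclei with at least 2 UMIs of Slc17a7, whose median depth was 7738, 2311 and 2295 UMIs. Pdgfra was detected in 88.2%, 71.7% and 71.6% of precursor nuclei and in 2.01%, 1.19% and 1.13% of neurons. Cspg4 was in 53.6%, 68.7% and 70.1% of precursor nuclei and in 1.16%, 0.861% and 0.764% of neurons. Tnr was also common in neurons, in 89.9%, 24.4% and 24.0% of them, and Lhfpl3 was in 20.6% of neurons of doxorubicin plus ACY-1083, 1.27% of doxorubicin and 1.0% of control.

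**Figure D2:**
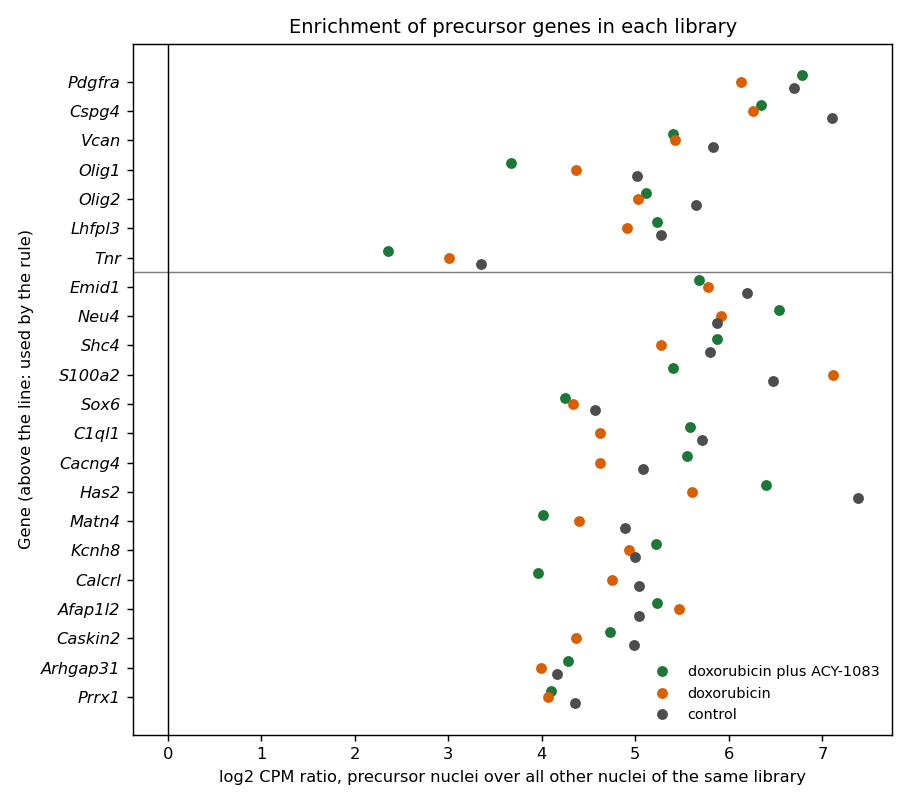
Enrichment of precursor genes, as the log2 ratio of CPM in precursor nuclei to CPM in all other nuclei of the same library, for the 7 genes of the rule (above the line) and precursor genes outside it (below the line). Each point is 1 library; all points lie right of 0, and for Neu4 the 3 libraries stand at 92.9-fold, 60.5-fold and 58.6-fold.

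Markers of other cells were present in precursor nuclei, and not all of their sums lay below those of all other nuclei. Col1a2, a fibroblast collagen, had no UMI in precursor nuclei of any library, and Pdgfrb, a pericyte receptor, was found in 2 of 220 nuclei in doxorubicin plus ACY-1083, 0 of 99 in doxorubicin and 2 of 67 in control. The 6 excitatory neuron markers summed to 455, 510 and 399 CPM in doxorubicin plus ACY-1083, doxorubicin and control, with 0, 2 and 2 of the 6 at 0. All other nuclei had 1255, 1235 and 1309 CPM. The 5 inhibitory neuron markers summed to 121, 383 and 349 CPM with none at 0, against 139, 258 and 235 CPM in other nuclei. The 8 astrocyte markers summed to 711, 885 and 1281 CPM, with 1 of 8 at 0 in each library because the rule bars Aqp4. Other nuclei had 592, 1045 and 942 CPM of them. The 11 mature oligodendrocyte markers summed to 379, 1140 and 949 CPM, and 0, 2 and 5 of them were at 0. In other nuclei they summed to 792, 1193 and 1184 CPM. Mbp, a myelin protein gene, was detected in 21.4%, 13.1% and 2.99% of precursor nuclei and in 40.3%, 17.0% and 17.1% of the deeper neurons. Thinned to 1000 UMIs, it was in 8.68%, 12.2% and 5.56% of precursor nuclei and in 8.01%, 8.52% and 9.14% of neurons. Ttr, the transcript of choroid plexus epithelium, was detected in 97.7%, 99.0% and 83.6% of precursor nuclei. It had 4177 CPM in doxorubicin and 2363 CPM in control, a ratio of 1.77 (1.46 to 2.15), against 2.28 in all other nuclei.

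Genes of the committed stage were detected in part of the precursor nuclei. Gpr17, a receptor of committed precursors, was found in 11.4%, 11.1% and 10.4% of precursor nuclei in doxorubicin plus ACY-1083, doxorubicin and control, against 0.813%, 0.738% and 1.21% of neurons. Bcas1, a gene of early myelinating cells, was found in 49.1%, 20.2% and 20.9% of precursor nuclei and in 3.87%, 1.07% and 1.49% of neurons. Itpr2, a calcium release channel that is high in committed precursors, was found in 52.7%, 15.2% and 22.4%, and Tcf7l2, a transcription factor of Wnt signalling, in 23.2%, 10.1% and 5.97%. In neurons Itpr2 was found in 13.8%, 3.69% and 3.50%, and Tcf7l2 in 3.52%, 1.23% and 1.41%. Thinned to 1000 UMIs, Bcas1 was detected in 25.1% of precursor nuclei in doxorubicin plus ACY-1083, 19.5% in doxorubicin and 22.2% in control (219, 41 and 18 nuclei were deep enough). Itpr2 was then in 31.1%, 2.44% and 27.8%, and Tcf7l2 in 10.5%, 17.1% and 5.56%, in the same order.

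Few precursor nuclei held several cell cycle genes. A list of 29 cell cycle genes was read in each nucleus, and at least 2 of them were detected in 15 of 220 precursor nuclei in doxorubicin plus ACY-1083 (6.82%), 5 of 99 in doxorubicin (5.05%) and 0 of 67 in control, where 3 nuclei would be 4.48% and the exact upper bound is 5.36%. Neurons, which do not divide, had at least 2 in 11.5%, 2.83% and 3.05% of nuclei, which is above the precursor share in doxorubicin plus ACY-1083 and control, so no cycling is read from this limit. At least 5 cell cycle genes were found in 3 precursor nuclei of doxorubicin plus ACY-1083 (1.36%, interval 0.282 to 3.93). They were found in 2 of doxorubicin (2.02%, 0.246 to 7.11) and 0 of control (upper bound 5.36%). Among neurons at least 5 were found in 1 of 2584, 1 of 2440 and 0 of 2488. Detection of these genes depends on depth, so no rate of division is read from these counts. The 3 nuclei of doxorubicin plus ACY-1083 held 11, 11 and 9 cell cycle genes, and those of doxorubicin 10 and 7. Top2a, the topoisomerase II of dividing cells and a target of doxorubicin, had 17 UMIs in 3 nuclei of doxorubicin plus ACY-1083, 8 UMIs in 2 nuclei of doxorubicin and none in control. The nuclei with Top2a in doxorubicin plus ACY-1083 were the same 3, whereas in doxorubicin they were the nucleus with 10 cell cycle genes and another with 3. Summed over precursor nuclei, the list stood at 244 CPM in doxorubicin plus ACY-1083, 442 CPM in doxorubicin and 150 CPM in control. Without the nuclei that held 5 or more of the genes it stood at 143 CPM (114 to 177), 202 CPM (128 to 303) and 150 CPM (68.5 to 284) in the same order, with overlapping intervals.

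With doxorubicin, precursor nuclei differed from those of the control library in few genes past counting error. Of 368 genes with at least 50 UMIs over both libraries, 28 were at least 1.5-fold higher and 30 at least 1.5-fold lower in doxorubicin, 15.8% in all (7.61% higher and 8.15% lower). The 95% interval of the ratio left out 1 for 34 of the 368 genes, or 9.24%, where counting alone gives at most 5%. Of these, 24 were also past 1.5-fold, 13 higher and 11 lower. In all other nuclei, with far more UMIs, 4 of the same 368 genes (1.09%) were past 1.5-fold. The median log2 ratio over the 368 genes was -0.03. It was 0.18 under scaling by edgeR's trimmed mean of M values, where 53 genes were higher and 8 lower, and 0.11 under median-of-ratios scaling, with 45 higher and 12 lower. The split into higher and lower genes therefore depends on the scaling, and ratios given here are relative to the sum of UMIs.

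Snhg11 and Meg3, which are abundant in neurons, were higher in doxorubicin through few nuclei. Snhg11 (ENSMUSG00000044349, chromosome 2, 158375638 to 158386145, GRCm38, plus strand), a long noncoding RNA, had 418 UMIs in doxorubicin and 86 in control, a ratio of 2.49 (1.97 to 3.17), against 0.953 in other nuclei. Meg3, an imprinted long noncoding RNA, had 671 UMIs in doxorubicin and 213 in control, a ratio of 1.61 (1.38 to 1.89). Excitatory neurons held Snhg11 at 3586, 10702 and 10863 CPM and Meg3 at 6618, 19001 and 20341 CPM in doxorubicin plus ACY-1083, doxorubicin and control. In the doxorubicin library 44.0% of the Snhg11 UMIs of precursor nuclei came from 5 nuclei. Meg3 and Snhg11 together took over 2% of the UMIs in 2 of 220 precursor nuclei of doxorubicin plus ACY-1083 (0.909%), 8 of 99 of doxorubicin (8.08%) and 0 of 67 of control. The 8 doxorubicin nuclei held 18.0% of all precursor UMIs of that library, with a median of 2710 UMIs against 898 in the other doxorubicin precursor nuclei, and 6 of the 8 carried 1 UMI of Slc17a7, Gad1 or Gad2. Without them, Snhg11 had a ratio of 1.35 (1.04 to 1.77), and the log2 ratio of Meg3 was -0.23. The 8 nuclei were picked by these 2 genes, so a fall of both ratios was fixed by the choice and nothing is read from it.

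Leaving out these 8 nuclei, 299 genes kept enough UMIs and 31 of them (10.4%) were past 1.5-fold, 19 higher and 12 lower in doxorubicin. The interval left out 1 for 23 of the 299 genes (7.69%).

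Other named genes had ratios above 1 with and without these nuclei, which left Ahi1 and Ank2 with intervals that held 1. In the doxorubicin library, excitatory neurons held Ahi1, Celf2, Epha5 and Ank2 at 3622, 959, 1496 and 1178 CPM. Precursor nuclei there held them at lower levels, 1302, 400, 1140 and 732 CPM. Slc24a5 was at 412 CPM in these neurons and 408 CPM in precursor nuclei, and Cspp1, Ptgds, Fry and Slc22a17 were lower in neurons. Whether neuron RNA adds to these ratios was not tested. Celf2, an RNA-binding splicing regulator, had 47 UMIs in doxorubicin and 9 in control, a ratio of 2.67 (1.29 to 6.2). Without the 8 nuclei it had 32 and 9 UMIs, under the 50 required, and a ratio of 2.22 (1.03 to 5.28). Epha5 (ENSMUSG00000029245, chromosome 5, 84054761 to 84417382, GRCm38, minus strand), an ephrin receptor, had 134 UMIs in 57 doxorubicin nuclei and 39 UMIs in 28 control nuclei. Its ratio was 1.76 (1.22 to 2.58), against 0.975 in other nuclei, and its log2 ratio without the 8 nuclei was 0.72. Ahi1, a gene of the primary cilium, had 153 UMIs in doxorubicin and 51 in control, a ratio of 1.53 (1.11 to 2.15), and of 1.37 (0.974 to 1.95) without the 8 nuclei. Slc24a5, a cation exchanger, had 48 UMIs in doxorubicin and 10 in control (2.45, 1.23 to 5.44), and 36 and 10 without the 8 nuclei (2.24, 1.09 to 5.07). Cspp1, a centrosome and cilium gene, had 52 and 14 UMIs (1.90, 1.04 to 3.71), and Ptgds, the prostaglandin D2 synthase, 105 and 35 UMIs (1.53, 1.04 to 2.32), in doxorubicin and control. Fry had 76 UMIs in doxorubicin and 24 in control (1.62, 1.01 to 2.68), the membrane adaptor gene Ank2 had 86 and 28 (1.57, 1.01 to 2.50, and 1.25, 0.778 to 2.04, without the 8 nuclei), and the transporter gene Slc22a17 had 112 and 38 (1.51, 1.03 to 2.24). Malat1, a nuclear long noncoding RNA, took 18.7% of precursor UMIs in doxorubicin and 16.9% in control, a ratio of 1.11 (1.08 to 1.13), close to the 1.08 of other nuclei.

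Of the genes with at least 50 UMIs, those described next were lower in doxorubicin. Srek1 (ENSMUSG00000032621, chromosome 13, 103739348 to 103774608, GRCm38, minus strand), a splicing regulator, had 26 UMIs in doxorubicin and 34 in control, a ratio of 0.391 (0.225 to 0.671), against 0.966 in other nuclei. Its log2 ratio without the 8 nuclei was -1.30. Sox2ot (ENSMUSG00000105265, chromosome 3, 34104270 to 34682619, GRCm38, plus strand), a long noncoding RNA whose gene spans Sox2, had 24 UMIs in doxorubicin and 27 in control, a ratio of 0.454 (0.251 to 0.818). It is followed further in the doxorubicin plus ACY-1083 library. Ankrd12 had 48 UMIs in doxorubicin and 46 in control (0.534, 0.349 to 0.817), and the uridylyltransferase gene Tut4 32 and 30 UMIs (0.545, 0.321 to 0.929). Cox8a, a subunit of cytochrome oxidase, had 29 UMIs in doxorubicin and 27 in control (0.549, 0.314 to 0.964), whereas other nuclei had a ratio of 1.27. Ckb, the brain creatine kinase, had 85 and 64 UMIs (0.679, 0.485 to 0.954), Pcsk1n, an inhibitor of a prohormone convertase, 36 and 36 (0.511, 0.313 to 0.835), and Tsc22d4 35 and 32 (0.559, 0.336 to 0.933), in doxorubicin and control. Without the 8 nuclei the intervals of Ckb (0.760, 0.539 to 1.07) and Tsc22d4 (0.623, 0.370 to 1.05) held 1.

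The genes of the rule chose the nuclei, so their ratios of doxorubicin to control only describe the selection and nothing is read from them. Cspg4 had 89 UMIs in doxorubicin and 69 in control, a ratio of 0.659, Olig1 32 and 29 (0.564), Tnr 94 and 70 (0.687), Vcan 140 and 97 (0.738) and Pdgfra 101 and 69 (0.748). In all, 60.6% of doxorubicin precursor nuclei against 47.8% of control ones had the fewest markers the rule allows. The 14 precursor genes outside the rule summed to 7428 CPM in doxorubicin and 8387 CPM in control, a ratio of 0.886 (0.793 to 0.990), with 0 of 8 tested genes past 1.5-fold and a median log2 ratio of -0.16. Without the 8 nuclei that ratio was 0.964 (0.861 to 1.08). Trimmed mean scaling raises every log2 ratio of doxorubicin against control by 0.21. Under it the sum of the 14 genes had a ratio of 1.02 (0.917 to 1.15). With nuclei thinned to 1000 UMIs, the median log2 ratio of the rule genes was 0.02.

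**Figure D3:**
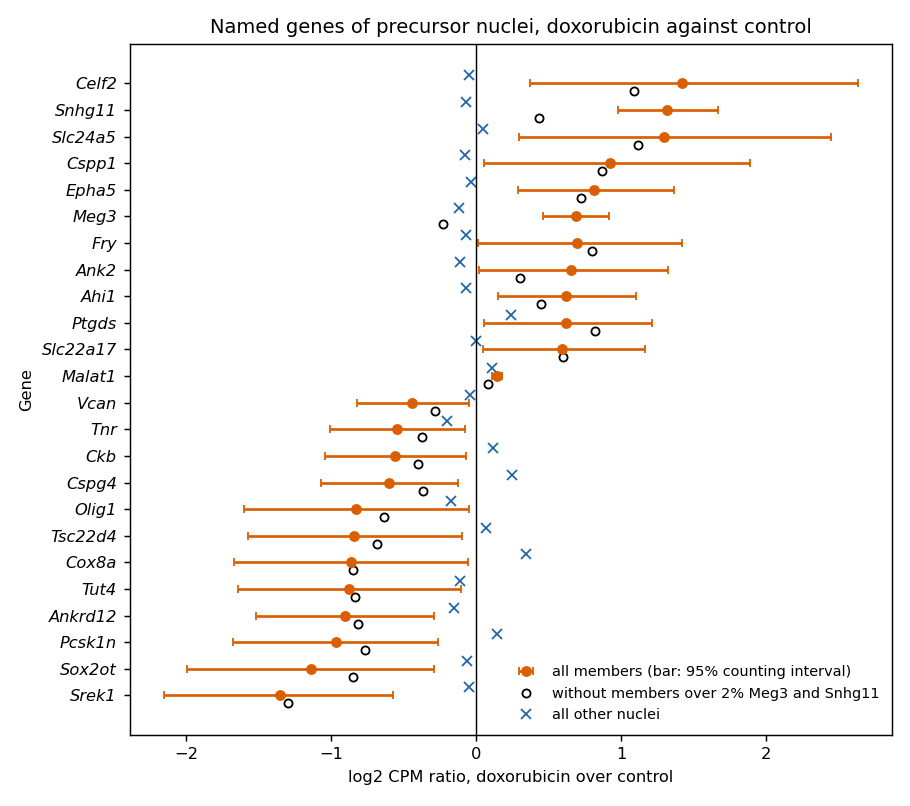
Log2 CPM ratios of the named genes in precursor nuclei, doxorubicin over control, with exact 95% counting intervals as bars. Open circles leave out the nuclei in which Meg3 and Snhg11 exceeded 2% of UMIs, and crosses show all other nuclei. Vcan, Tnr, Cspg4 and Olig1 chose the precursor nuclei and are a description. Meg3 and Snhg11 picked the nuclei left out, so the fall of both was fixed by that choice. Without those nuclei Meg3 crosses 0 (-0.23), while Srek1 stays at -1.30.

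Few growth factor and lineage genes had enough UMIs. Of 21 mitogen genes, 3 could be compared between doxorubicin and control and none was past 1.5-fold. Ntrk2, the BDNF receptor, had 60 UMIs in doxorubicin and 41 in control (0.748, 0.495 to 1.14), and Ptn, the growth factor pleiotrophin and a ligand of PTPRZ1, 64 and 31 (1.06, 0.677 to 1.68). Among 25 lineage transcription factors, 4 could be compared and none was past 1.5-fold. Sox6 had 45 UMIs in doxorubicin and 27 in control (0.852, 0.517 to 1.43), Zeb1 47 and 27 (0.890, 0.543 to 1.49) and Sox10 16 and 10 (0.818, 0.349 to 2.02). The summed ratio of all 25 was 0.80 (0.684 to 0.937), and 0.862 (0.733 to 1.01) without the 8 nuclei. Under trimmed mean scaling it was 0.925 (0.791 to 1.08).

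Matrix genes other than Vcan, Cspg4 and Tnr, which the rule used, were mostly enriched in precursor nuclei. At least 2-fold enrichment over other nuclei was found for 12 of 16 such genes with at least 20 UMIs in doxorubicin plus ACY-1083, 5 of 5 in doxorubicin and 5 of 5 in control, beside 12.5%, 17.0% and 32.1% of all genes. As above, this describes nuclei picked by correlated genes. Ptprz1, a receptor phosphatase of the chondroitin sulfate class, had 1114, 241 and 130 UMIs and was 10.9-fold, 10.3-fold and 11.5-fold enriched in that library order. Cspg5, the proteoglycan neuroglycan C, was 7.88-fold, 7.44-fold and 8.32-fold enriched, and Bcan, the proteoglycan brevican, 4.70-fold, 4.28-fold and 4.95-fold. Between doxorubicin and control, Ptprz1 had a ratio of 0.948 (0.763 to 1.18), Cspg5 of 0.931 (0.725 to 1.20) and Bcan of 0.996 (0.669 to 1.51). Of 8 matrix genes tested, Cspg4 alone was past 1.5-fold, and none was without the 8 nuclei rich in Meg3 and Snhg11. The 23 genes outside the rule had a summed ratio of 0.914 (0.809 to 1.03).

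Receptors for glutamate and guidance cues gave summed ratios above 1. Gria2, an AMPA receptor subunit, had 612 UMIs in doxorubicin and 270 in control, a ratio of 1.16 (1.0 to 1.34), and Grm5, a metabotropic glutamate receptor, 84 and 44 (0.976, 0.670 to 1.44). None of 4 glutamate receptor genes tested was past 1.5-fold, and no GABA or acetylcholine receptor gene had enough UMIs. Grin2a, an NMDA receptor subunit below the count needed, had 41 UMIs in doxorubicin and 8 in control (2.62, 1.21 to 6.47). The summed glutamate receptor ratio was 1.12 (1.0 to 1.25), 1.05 (0.937 to 1.18) without the 8 nuclei rich in Meg3 and Snhg11, and 1.29 (1.16 to 1.44) under trimmed mean scaling. The 30 guidance genes had a summed ratio of 1.25 (1.04 to 1.52), and also 1.25 without those nuclei, with 1 of 2 tested genes, Epha5, past 1.5-fold. The other 29 guidance genes had 244 UMIs in doxorubicin and 115 in control (1.08, 0.866 to 1.37). Among adhesion genes, 2 of 13 tested were lower past 1.5-fold and none higher, beside 8.15% lower of all genes, and without those nuclei none of the 13 was. They were Nrxn2, a presynaptic adhesion gene with 54 UMIs in doxorubicin and 43 in control (0.642, 0.424 to 0.980), and Lrrc4c, a netrin-G ligand with 31 and 24 (0.660, 0.376 to 1.18).

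Genes of differentiation and its inhibitors were too sparse for most comparisons. Qk, which encodes an RNA-binding protein needed for myelination, had 131 UMIs in doxorubicin and 77 in control (0.870, 0.652 to 1.17). Itpr2 had 16 UMIs in doxorubicin and 20 in control (0.409, 0.198 to 0.831). Hes5, a Notch target, had 28 UMIs in doxorubicin and 7 in control (2.05, 0.873 to 5.55), and Notch1 14 and 7 (1.02, 0.386 to 2.99). The 27 differentiation genes had a summed ratio of 0.957 (0.814 to 1.13) and the 32 inhibitor, Notch, BMP and Wnt genes of 1.11 (0.872 to 1.42).

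Among genes tied to DNA damage and stress, the topoisomerase and repair list had an interval above 1. The 29 p53 target genes summed to 80 UMIs in doxorubicin and 46 in control, a ratio of 0.889 (0.611 to 1.31). Cdkn1a, the p53 target that encodes the cell cycle inhibitor p21, had no UMI in precursor nuclei of any library. The 24 topoisomerase and break repair genes had a summed ratio of 1.31 (1.01 to 1.72), against 0.952 in other nuclei, 1.38 (1.06 to 1.82) without the 8 nuclei and 1.52 (1.17 to 1.99) under trimmed mean scaling. Top1 had 52 UMIs in doxorubicin and 28 in control (0.95, 0.589 to 1.56) and Top2b, the topoisomerase II of cells that do not divide, 22 and 13 (0.865, 0.417 to 1.87). Parp1, a sensor of DNA breaks, had 16 and 3 UMIs (2.73, 0.781 to 14.6). The 20 immediate early genes had a ratio of 1.43 (0.846 to 2.52) and the 24 antioxidant and metallothionein genes of 1.26 (0.922 to 1.73). The antioxidant ratio was 1.39 (1.02 to 1.93) without the 8 nuclei and 1.45 (1.07 to 2.0) under trimmed mean scaling, and both intervals leave out 1.

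The circadian clock list was lower in doxorubicin as a sum, also under trimmed mean scaling (0.688, 0.525 to 0.903). Its 20 genes held 121 UMIs in doxorubicin and 104 in control, a ratio of 0.595 (0.454 to 0.781), against 0.944 in other nuclei and 0.593 (0.446 to 0.789) without the 8 nuclei rich in Meg3 and Snhg11. No single gene had enough UMIs for the comparison. Nr1d2, a repressor of the clock's positive arm, had 16 UMIs in doxorubicin and 17 in control (0.481, 0.228 to 1.01), and Per3 12 and 11 (0.558, 0.225 to 1.40). Hlf, a clock output factor, had 5 UMIs in doxorubicin and 11 in control. The labels name no hour of tissue collection.

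The 74 oxidative phosphorylation genes had a summed ratio of 1.22 (1.10 to 1.36), close to the 1.28 of other nuclei between the doxorubicin and control libraries. Of 4 tested genes, 1 was higher and 1 was lower past 1.5-fold. Cox7c had 51 UMIs in doxorubicin and 15 in control (1.74, 0.964 to 3.33), and Cox8a, given above, was the lower one. The 20 short actin and calcium binding transcripts had a ratio of 1.01 (0.901 to 1.13) in precursor nuclei and of 1.24 in other nuclei, with 0 of 10 tested genes past 1.5-fold. Cst3, the secreted protease inhibitor cystatin C, had 153 UMIs in doxorubicin and 99 in control (0.790, 0.609 to 1.03), against 1.26 in other nuclei.

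**Figure D4:**
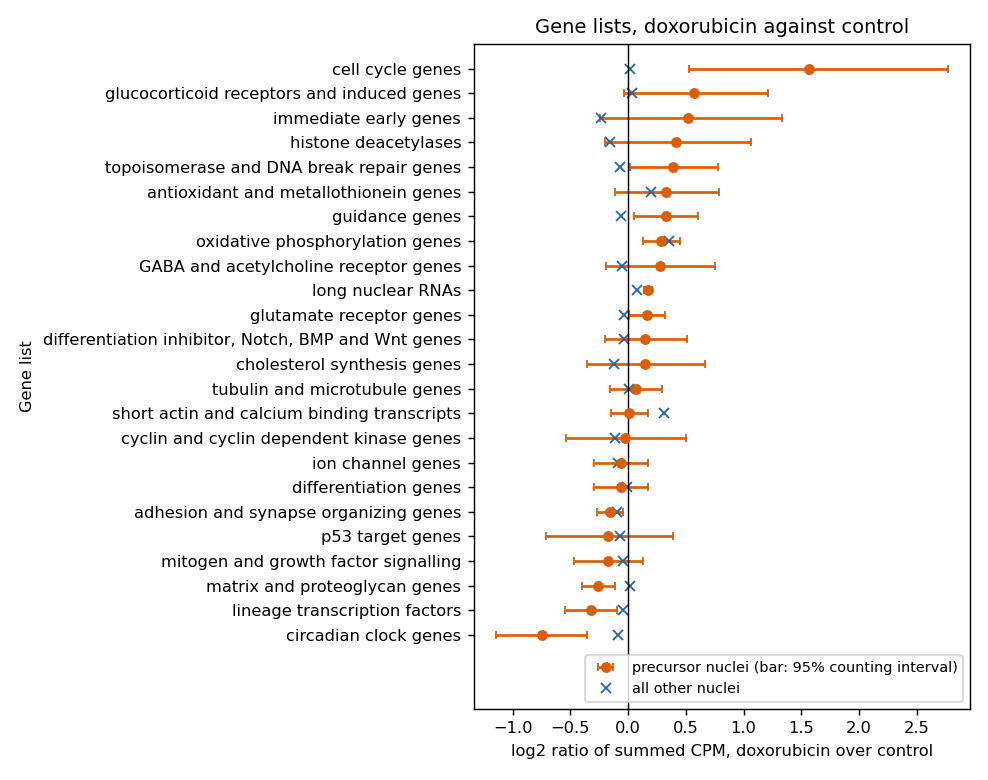
Log2 ratio of summed CPM for each gene list in precursor nuclei, doxorubicin over control, with exact 95% counting intervals as bars and crosses for the same ratio in all other nuclei. The clock list lies left of 0 (0.595-fold) and the guidance list right of it (1.25-fold), while oxidative phosphorylation genes lie beside the value of other nuclei (1.22 against 1.28). Without Epha5, the other 29 guidance genes had a ratio of 1.08 (0.866 to 1.37), which is not drawn.

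Between doxorubicin plus ACY-1083 and doxorubicin, levels differed with intron length in precursor nuclei as in all others. Of 3060 genes with at least 50 UMIs over both libraries, 1232 (40.3%) were at least 1.5-fold higher and 845 (27.6%) at least 1.5-fold lower in doxorubicin plus ACY-1083, 67.9% in all, and 69.2% of the same genes were past 1.5-fold in the other nuclei. In 5 equal groups by summed intron length, the median log2 ratio was -1.13, -0.30, 0.21, 0.70 and 1.91 from the shortest to the longest in precursor nuclei, and -1.24, -0.32, 0.34, 0.88 and 2.07 in other nuclei. Spearman's rho between log2 ratio and intron length across genes was 0.70 in precursor nuclei and 0.75 in other nuclei. Genes are not independent replicates, and all points share the same pair of libraries. Between doxorubicin and control, over 368 genes, the same rho was 0.005 in precursor nuclei and -0.376 in other nuclei. Lhfpl3, 18.9-fold higher in precursor nuclei of doxorubicin plus ACY-1083 than of doxorubicin, was 14.9-fold higher in other nuclei too.

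**Figure D5:**
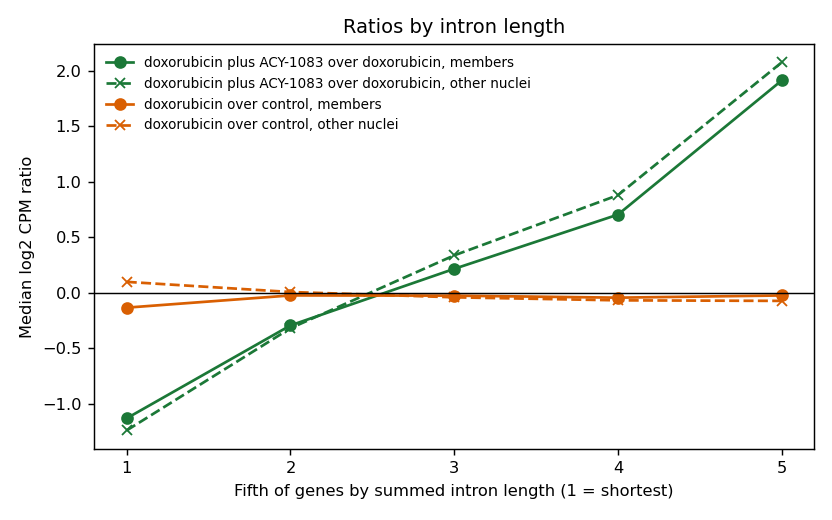
Median log2 CPM ratio of genes in 5 groups of increasing summed intron length, for precursor nuclei and for all other nuclei, in both library comparisons. For doxorubicin plus ACY-1083 over doxorubicin the line climbs with intron length in precursor nuclei, from -1.13 in the shortest group to 1.91 in the longest, and in other nuclei, while for doxorubicin over control the precursor line stays near 0.

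Precursor nuclei were therefore set against the other nuclei of their own library, and the log2 enrichment was compared between libraries. This enrichment difference, doxorubicin plus ACY-1083 minus doxorubicin, was past 1.5-fold for 29.0% of the 3060 genes, with 354 (11.6%) higher and 533 (17.4%) lower, and its rho with intron length was -0.124. A shift in the other nuclei also moves this measure. Its intervals are normal approximations that cover counting error only.

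Ranked by the interval bound nearest to 0, the highest enrichment differences were of Atg16l2 and Sox2ot. Atg16l2 (ENSMUSG00000047767, chromosome 7, 101263034 to 101302251, GRCm38, minus strand), a relative of the autophagy gene Atg16l1, had 195 UMIs in 116 of 220 nuclei of doxorubicin plus ACY-1083, against 5 UMIs in 5 of 99 nuclei of doxorubicin. Control had 6 UMIs. It was 4.25-fold enriched over other nuclei in doxorubicin plus ACY-1083 and 0.601-fold in doxorubicin, a log2 difference of 2.82 (1.60 to 4.05). Sox2ot had 1381 UMIs in 206 nuclei of doxorubicin plus ACY-1083, 24 UMIs in 22 nuclei of doxorubicin and 27 UMIs in 22 nuclei of control. Its enrichment was 10.9-fold, 2.58-fold and 5.41-fold in that order, and the difference of doxorubicin plus ACY-1083 minus doxorubicin was 2.09 (1.5 to 2.67). For Sox2ot the doxorubicin value was the lowest of the 3 libraries, and control lay between. The ranking favours genes with a low doxorubicin value, so nothing is read from this order.

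Other genes with a higher enrichment in doxorubicin plus ACY-1083 had fewer UMIs. Cfap20, a cilium gene, had 152 UMIs in doxorubicin plus ACY-1083 and 12 in doxorubicin (difference 2.25), Rgcc, a cell cycle regulator, 87 and 11 (1.60), and Plpp3, a lipid phosphatase, 123 and 16 (1.44). Ednrb, the endothelin receptor B, had 65 UMIs in doxorubicin plus ACY-1083 and 8 in doxorubicin (1.57), and Rlbp1, a retinoid-binding protein gene, 61 and 15 (1.48). Rlbp1 was 52.7-fold, 18.8-fold and 49.3-fold enriched in doxorubicin plus ACY-1083, doxorubicin and control. The doxorubicin and control values rest on 15 and 16 UMIs. As the gene was ranked by a low doxorubicin value, nothing is read from a control value above it.

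Among lower enrichments, Pcdh15 had the most UMIs. Pcdh15 (ENSMUSG00000052613, chromosome 10, 73099342 to 74649737, GRCm38, plus strand), a protocadherin typical of precursors, had 1764 UMIs in doxorubicin plus ACY-1083, 78 in doxorubicin and 46 in control. Its enrichment was 7.68-fold, 20.8-fold and 17.6-fold, a difference of -1.44 (-1.78 to -1.09) for doxorubicin plus ACY-1083 minus doxorubicin. It was detected in 39.8% of neurons of doxorubicin plus ACY-1083, against 4.22% of neurons of doxorubicin and 6.99% of control. Spock1, a proteoglycan, had 57 UMIs in doxorubicin plus ACY-1083 and 8 in doxorubicin (difference -3.10), Bcas3 143 and 10 (-1.93), Zswim6 103 and 15 (-1.84) and Map3k3 48 and 8 (-2.23). Nrg3os, Esrrg and Nr6a1os rested on 1, 1 and 2 UMIs in doxorubicin, too few for a reading.

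By list, enrichment differences of doxorubicin plus ACY-1083 minus doxorubicin lay on both sides of 0. Trimmed mean scaling moved the median over all 3060 genes from -0.08 to 0.39, so the list medians and counts depend on the scaling. Mitogen genes had a median of -0.64, with 1 higher and 7 lower of 13. Erbb4, a neuregulin receptor, was 2.74-fold, 4.28-fold and 3.58-fold enriched in doxorubicin plus ACY-1083, doxorubicin and control. Precursor genes outside the rule had a median of 0.42, with 6 higher and 1 lower of 13, among them Cacng4 (0.94), C1ql1 (0.96) and Megf11 (1.08), and Pcdh15 as the lower one. The 16 matrix genes had a median of 0.09, with 4 higher and 3 lower. The 13 lineage transcription factors had a median of -0.04, with 1 higher and none lower. Topoisomerase and repair genes had a median of -0.59, with 4 of 7 lower and none higher, and guidance genes of -0.27, with 5 of 17 lower and none higher. All 3 antioxidant genes that could be compared had a higher enrichment. The level of the antioxidant and metallothionein list was itself lower in doxorubicin plus ACY-1083. Its summed ratio over doxorubicin was 0.669 (0.556 to 0.811) in precursor nuclei and 0.465 in other nuclei. The counts of enrichment differences stand beside the 11.6% higher and 17.4% lower of all genes.

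The drug targets themselves were sparse. Hdac6, the target of ACY-1083, had 28 UMIs in 25 of 220 precursor nuclei of doxorubicin plus ACY-1083 (11.4%), 5 UMIs in 5 of 99 of doxorubicin (5.05%) and 1 UMI in 1 of 67 of control (1.49%). Neurons had it in 19.7%, 13.2% and 14.3% of nuclei at their greater depth. As CPM it was 45.8, 42.5 and 16.6 in the same order, and the ratio of doxorubicin over control, 2.56, had an interval of 0.286 to 121. A difference in Hdac6 between precursor nuclei of these libraries was not detectable at this depth. ACY-1083 acts on the HDAC6 protein, which these data do not measure. Hdac8 had 189 UMIs in doxorubicin plus ACY-1083, 2 in doxorubicin and 2 in control, and was 1.68-fold, 0.625-fold and 1.18-fold enriched. Its doxorubicin and control counts lay under the detection limit of 3 UMIs, too few for a reading. Levels in doxorubicin plus ACY-1083 also differed from doxorubicin with intron length, as given above. Sirt2, a deacetylase of oligodendrocytes that acts on tubulin like HDAC6, had 78, 26 and 10 UMIs and was 2.91-fold, 3.17-fold and 2.29-fold enriched in the same order.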

How the data were processed

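Values deposited by the authors are raw UMI counts, which carry no normalization. Cell Ranger 5.0.0 was used for doxorubicin plus ACY-1083 and 4.0.0 for doxorubicin and control, per the file headers, whereas version 6.0.0 and mm10 stand in the submitters' processing notes. None of these says how intron reads were treated. The libraries held 62151258, 21458785 and 19175447 UMIs (doxorubicin plus ACY-1083, doxorubicin, control), and no barcode had fewer than 500.

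The rule was applied to raw counts. UMIs were summed over precursor nuclei per library and divided by the sum to give CPM. Ratios carry exact conditional intervals, and log2 ratios had 0.5 UMIs added. Genes entered a comparison with at least 50 UMIs over both libraries, and 1.5-fold was the threshold for counting a gene. Gene positions and intron lengths came from GENCODE vM21. Analyses used Python 3.11.15, numpy 2.4.6, scipy 1.17.1, pandas 2.3.3, scanpy 1.11.5 and edgeR 4.0.16 (for scaling factors only), and the scripts were tested on simulated data. Doublets were not removed in the main analysis. Scrublet at its automatic threshold marked 1, 1 and 3 barcodes of the doxorubicin plus ACY-1083, doxorubicin and control libraries, so it did not work here, and removal of the top 8% of scores was used as an alternative.

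Named genes were the rule genes and drug targets, the 12 highest and 12 lowest genes of doxorubicin against control by the interval bound nearest to 1, the 8 highest and 8 lowest enrichment differences by the bound nearest to 0, the 15 leading genes outside the rule, and 2 to 4 genes of each list with the most UMIs or extreme ratios. Mitochondrial, ribosomal, hemoglobin, sex-linked, predicted and other cell types' marker genes were not eligible for the ranked parts. Cdkn1a, Grin2a, Nrxn2 and markers of other cells were added after their values were seen. The members, lists and tests were chosen with earlier results of these data known. There was 1 library per group, so no test was made. The alternatives concerned the marker and exclusion limits, doublets, depth, scaling, the added UMIs, the count minimum and intron length. Some of them were added after seeing the data: the top Scrublet scores, 2 markers, 3 of 5 markers, 500 UMIs, nuclei under 2000 UMIs, and leaving out nuclei rich in Meg3 and Snhg11.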

Additional observations from a re-analysis of the deposited data

How the results depend on the processing

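Shares are given in percent in the order doxorubicin plus ACY-1083, doxorubicin, control. They were 1.54, 0.319 and 0.321 with 4 markers, 2.32, 1.55 and 1.30 with 2 markers, and 0.984, 0.458 and 0.413 with 3 of 5 markers. In nuclei under 2000 UMIs they were 2.37, 1.04 and 0.874, and at 500 UMIs per nucleus 0.837, 0.286 and 0.330. With all exclusion sums at 0 they were 1.16 and 0.565 in the treated libraries, and at 1000 UMIs 0.338 in doxorubicin and 0.188 in control. The share with cell cycle genes in doxorubicin plus ACY-1083 was 3.35 at 1000 UMIs and 1.96 at 500 UMIs, and with 1 gene required the shares were 33.2, 19.2 and 13.4. The 58 genes past 1.5-fold in doxorubicin against control became 37 without the top Scrublet scores, 33 with 4 markers, 141 with 2, 28 with 3 of 5, 23 with exclusion sums at 0, 31 under 2000 UMIs, 31 without nuclei rich in Meg3 and Snhg11, 2 at 1000 UMIs, 3 at 500 UMIs, and 486, 11 and 8852 with a minimum of 20, 100 and 1 UMI. The 2077 genes of doxorubicin plus ACY-1083 against doxorubicin became 3127 with 2 markers, 1026 with 3 of 5, 1101 with exclusion sums at 0, 456 under 2000 UMIs, 468 at 1000 UMIs, 105 at 500 UMIs, 4480, 930 and 12019 with the 3 minimums, and 749 among the genes with the shortest introns (1 of 3 equal groups). The 887 enrichment differences became 511 with 3 of 5 markers, 506 with exclusion sums at 0, 320 under 2000 UMIs, 280 at 1000 UMIs, 44 at 500 UMIs, and 2483, 314 and 9589 with the 3 minimums. Fewer nuclei, UMIs or genes entered most of these counts. Scaling moved the split of the 2077 genes from 1232 higher and 845 lower to 1614 and 459 under trimmed mean scaling and 1587 and 492 under median-of-ratios scaling. With 5 UMIs added it was 861 and 1068. The enrichment differences split into 1071 higher and 173 lower, 983 and 197, and 61 and 1256 in the same order, and doxorubicin against control into 9 and 38 with 5 UMIs added.

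Several log2 values changed sign. In doxorubicin against control, Meg3 was -0.14 under 2000 UMIs, -0.23 without the nuclei rich in Meg3 and Snhg11 and -0.0871 at 1000 UMIs, and Pcsk1n was 0.0544 at 1000 UMIs. At 500 UMIs Ank2 was -0.10, Cox8a 0.57, Olig1 0.38, Slc24a5 -0.61 and Tsc22d4 0.0406. The enrichment difference of Ednrb was -0.25 at 1000 UMIs. Among list medians of doxorubicin plus ACY-1083 against doxorubicin, matrix genes were -0.24 at 500 UMIs and -1.54 among genes with the shortest introns, where precursor genes outside the rule were -0.75. The rule genes were 0.32 under 2000 UMIs, 0.19 at 1000 and 0.54 at 500 UMIs. Histone deacetylases were -0.23 with a minimum of 1 UMI, and glucocorticoid genes -0.0683 with 20 and -0.44 with 1. The cause of each was not tested. Of the values recomputed, 9 of the list medians, 9 of the named genes' ratios and 1 of their enrichment differences changed sign after passing the threshold. No paired analysis was possible because each group had 1 library. Each group had 1 pooled library, and precursor nuclei of control held 60094 UMIs, so 368 genes could be compared.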

Other observations

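Values of 5 further genes, chosen after they were seen, follow. Ntn1, the guidance cue netrin 1, was 36.0-fold enriched in precursor nuclei over other nuclei of doxorubicin plus ACY-1083, with 84 UMIs. Sema3d, a secreted semaphorin, was 23.3-fold, 18.9-fold and 27.8-fold enriched in doxorubicin plus ACY-1083, doxorubicin and control, and had 173, 11 and 6 UMIs. Ccnd1, the cyclin of the first growth phase, was 5.82-fold, 7.82-fold and 9.73-fold enriched with 29, 19 and 13 UMIs in that order. Has2, a hyaluronan synthase, had 25, 5 and 5 UMIs and was 84.1-fold, 48.7-fold and 167-fold enriched. Diaph3, a formin counted in the cell cycle list, had 37 UMIs in 32 nuclei of doxorubicin plus ACY-1083, 6 UMIs in 5 nuclei of doxorubicin and 1 UMI in control, and was thus spread over more nuclei than Top2a.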
